A study of Solanum lycopersicum with 3 samples.

Results

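The genes described here are 7 tomato carriers of nutrients, sugar and water, each measured by 1 probe set: the phosphate transporter gene PT1, the hexose transporter gene HT3, the amino acid permease genes AAP1, AAP2 and AAP3, the oligopeptide transporter gene OPT1 and the aquaporin gene Aqp2. They were chosen by symbol, as the platform annotation or the current RefSeq gene table gives it. That rule uses no measured value, but earlier results of these data were known when the choice was made. They are 7 of 802 named genes, which the 909 probe sets with 1 gene name stand for, out of 10038 non-control probe sets. All 7 had the same symbol in both sources.

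RNA came from the fruit pericarp of tomato, Solanum lycopersicum, strain Ailsa Craig, from plants grown in a glasshouse, and was hybridised to 3 Affymetrix arrays, 1 per preparation. The pellet preparation is RNA from the cell debris that the Ex2 method spins out. By its label it was extracted by the Ex2 method, but its protocol text is that of the supernatant, so the way the debris was resuspended is unknown here. The Ex2 preparation is RNA from the supernatant of a homogenate made in 2 ml of buffer per g of tissue, with Tris, sucrose, 0.6 M KCl and 30 mM MgCl2, and spun at 10000 x g for 15 min before detergent and phenol were added. The Ex1 preparation is RNA from tissue mixed at once with a phenol-containing buffer, at 1 ml per g, and with phenol and chloroform. Each used 10 to 12 g of tissue. The sources used here give neither the ripening stage nor the number of fruits pooled. The series asked, by its title, whether the Ex2 method recovers mRNAs of secreted and endomembrane proteins. With 1 array per preparation no difference below has a replicate check, no test was possible, and the number of arrays limits the precision.

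Plant cells take up phosphate, hexoses, amino acids and peptides mostly by carriers in the plasma membrane that couple the solute to protons moving down a gradient, which plasma membrane proton pumps maintain. Aquaporins let water cross the plasma membrane or the membrane of the vacuole. In fruit, carriers of this kind import sugars and amino acids that arrive through the phloem, and water channels serve cell expansion. All of these proteins span a membrane several times and are made by ribosomes at the endoplasmic reticulum.

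Values are probe set intensities on a linear scale. Differences are of log2(intensity + 1), so they understate the change of dim genes. A probe set entered a comparison when the brighter of its values on both compared arrays reached an intensity of 175, the median over all values but the controls'. "At least 2-fold" means a log2 difference of 1 or more in size.

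The labelled tissue was checked on markers of ripening fruit. Of 6 listed, 5 were found, which here means matched by name to a probe set. All 5 were bright on all arrays, with summed intensities of 43240 in the pellet, 51550 in Ex2 and 44530 in Ex1. The fruit polygalacturonase gene PG2 read 14827 in the pellet, 16220 in Ex2 and 13236 in Ex1. EXP1 read 2796 in the pellet, 6811 in Ex2 and 2321 in Ex1. The log2 difference for Ex2 minus Ex1 was 0.29 for PG2 and 1.55 for EXP1, the largest of the 5. It was -0.02 for both E8 and Psy1 and -0.04 for ACS2, and Psy1 and ACS2 were lowest in the pellet. Of 2 seed markers none had a probe set matched by name, so seed RNA was not checked. The arrays themselves differed in their controls. The hybridisation spikes, bacterial RNAs added to each sample, were 1.50-fold brighter on the pellet and 2.33-fold brighter on Ex2 than on Ex1, at the median of 21 probe sets. Setting the arrays level on these spikes placed the median over the 10038 probe sets at 0.59 for pellet minus Ex2, -0.54 for pellet minus Ex1 and -1.22 for Ex2 minus Ex1. Setting them level on RPL3 and RPL8, which encode cytosolic ribosomal proteins, placed it at -0.42 for pellet minus Ex2, 0.10 for pellet minus Ex1 and 0.50 for Ex2 minus Ex1. On the deposited scale it was -0.03 for Ex2 minus Ex1 and 0 for both others. Directions are on the deposited scale unless stated.

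Of the 7 carriers, 6 had their highest intensity in Ex2, their lowest in Ex1 and the pellet in between. The exception was AAP3, which had the same value on all 3 arrays. The Ex2 values of those 6 were 3.42-fold to 6.66-fold above Ex1, and the pellet values were 2.41-fold to 4.49-fold below Ex2. The folds above Ex1 of HT3 and AAP1 rest on dim Ex1 values and are uncertain. Between the pellet and Ex1 the carriers came apart, with Aqp2 2.60-fold higher in the pellet and AAP2 1.10-fold.

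**Figure D1:**
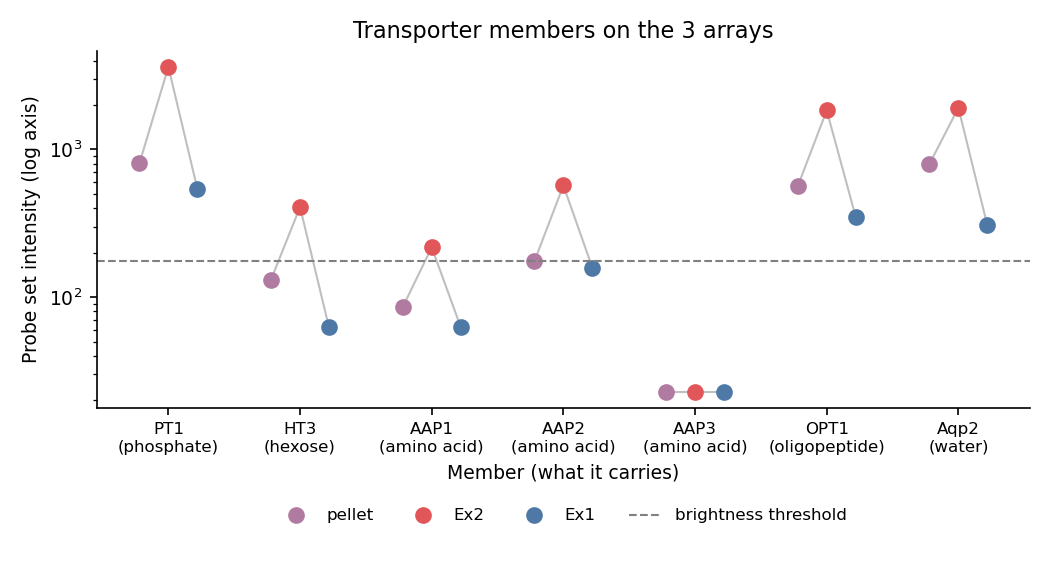
Intensity of each carrier (y axis, log scale) on the pellet, Ex2 and Ex1 arrays, 1 point per array, with the brightness threshold of 175 as a dashed line. The Ex2 point stands above both others for 6 genes, from 217 for AAP1 to 3617 for PT1, while the 3 points of AAP3 coincide at 22.9.

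PT1 encodes a proton-coupled phosphate transporter of the plasma membrane, best known from roots. Its intensity was 806 in the pellet, 3617 in Ex2 and 542 in Ex1. The Ex2 array stood far above the other arrays, and all 3 values were above the brightness threshold. The log2 difference for Ex2 minus Ex1 was 2.74 (6.66-fold), the highest among the carriers, and 1.94% of the 5568 probe sets that passed the filter had a higher one. For pellet minus Ex2 it was -2.17, a 4.49-fold lower value that was also the carriers' largest in size. The difference for pellet minus Ex1 was 0.57, or -0.01 with scaling on the spikes. The gene TPSI1, whose transcript is known to accumulate under phosphate starvation, had its lowest value in Ex2 instead. It read 907 in the pellet, 203 in Ex2 and 534 in Ex1, with log2 differences of 2.15 for pellet minus Ex2 and -1.39 for Ex2 minus Ex1. The related phosphate transporter gene PT2 was dim on every array, at 23.7 in the pellet, 24.1 in Ex2 and 22.7 in Ex1.

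HT3 encodes a hexose transporter, which moves glucose and related sugars into cells with protons. Its intensity was 132 in the pellet, 407 in Ex2 and 62.3 in Ex1. HT3 reached the brightness threshold in Ex2 alone, so its passing the filter already required a higher Ex2 value. Ex2 minus Ex1 was 2.69 (6.45-fold) and pellet minus Ex2 was -1.62. The pellet was 2.09-fold above Ex1, with both values under the threshold. The other hexose transporter genes stayed under the threshold on all arrays. HT2 read 34.1 in the pellet, 123 in Ex2 and 21.2 in Ex1, so its Ex2 value was the highest. HT1 read 27.7 in the pellet, 40.2 in Ex2 and 26.6 in Ex1. The Ex1 values of both genes lay under the 90th percentile of probe sets for reporter genes, which tomato lacks (29.4 in Ex1 over 63 probe sets). No fold is therefore given for them. The highest reporter value was 71.5 on each array. The HT3 value in Ex1 was under that too, so the HT3 fold is uncertain.

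The amino acid permeases import amino acids with protons. AAP2 had intensities of 174.8 in the pellet, 570.2 in Ex2 and 158 in Ex1. Its pellet value lay just under the threshold of 175.2 and close to its Ex1 value, while Ex2 stood apart. AAP2 differed by 1.84 for Ex2 minus Ex1 (3.59-fold), by -1.70 for pellet minus Ex2 and by 0.14 for pellet minus Ex1. AAP1 had intensities of 85.6 in the pellet, 217 in Ex2 and 62.8 in Ex1. It too reached the threshold in Ex2 alone, and its Ex2 value was the nearest to the threshold of the carriers that passed. AAP1 differed by 1.77 for Ex2 minus Ex1 (3.42-fold), by -1.33 for pellet minus Ex2 and by 0.44 for pellet minus Ex1. Its Ex1 value was under the highest reporter value, 71.5, so this fold is uncertain as well.

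AAP3 was at 22.9 on each of the 3 arrays. It is 1 of 946 non-control probe sets with the same value on all arrays, so its difference of 0 is an exact tie in the deposited table. The reporter probe sets had 90th percentiles of 32.7 in the pellet, 37.0 in Ex2 and 29.4 in Ex1, so the AAP3 value lay within the range of signal without a matching transcript. No order of the preparations can be read for this permease.

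OPT1 belongs to the oligopeptide transporter family, whose members carry small peptides or peptide-like metal chelates. Its intensity was 563 in the pellet, 1837 in Ex2 and 350.2 in Ex1. All 3 values were above the threshold, with Ex2 well above the other arrays. OPT1 differed by 2.39 for Ex2 minus Ex1 (5.23-fold), by -1.70 for pellet minus Ex2 and by 0.68 for pellet minus Ex1.

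Aqp2 is named as an aquaporin, a channel that lets water cross membranes. Its intensity was 795 in the pellet, 1915 in Ex2 and 305 in Ex1. All 3 values were above the threshold, and the pellet lay midway between the other arrays on the log2 scale. Aqp2 differed by 2.64 for Ex2 minus Ex1 (6.25-fold), by -1.27 for pellet minus Ex2 and by 1.38 for pellet minus Ex1 (2.60-fold). Among the 5297 probe sets that passed the filter for pellet minus Ex1, 1.42% had a higher difference than Aqp2. The value for pellet minus Ex2 was the smallest in size among the 6 carriers, and that for pellet minus Ex1 the largest.

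Of the 6 carriers that passed the filter for Ex2 minus Ex1, all 6 had an Ex2 value at least 2-fold above Ex1, against 17.3% of the 5568 probe sets that passed it. None had one at least 2-fold below, against 10.1% of those probe sets. Their median difference was 2.52, against -0.25 over those probe sets. HT3, AAP1 and AAP2 passed through their Ex2 value alone, so the count and the median over those that passed describe the carriers and support nothing. PT1, OPT1 and Aqp2 were bright on all 3 arrays, with 2.74, 2.39 and 2.64. Over all 7 carriers with no filter the median was 2.39. The differences of the 5568 probe sets that passed the filter had 2 masses. Apart from the bin that holds exact ties, the main one was fullest between -0.6 and -0.5. The trough between the masses lay between 1.1 and 1.2, with 30 probe sets in that bin, and the smaller upper mass was fullest between 2.2 and 2.3, with 79. All 6 carriers lay in the upper mass, which, counted from 1.1 up, held 16.7% of these probe sets.

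The same 6 carriers passed for pellet minus Ex2, and 6 of 6 were at least 2-fold lower in the pellet, against 19.8% of 5538 probe sets, with 0 at least 2-fold higher, against 17.0%. Their median was -1.66, against 0.07 over those probe sets. HT3, AAP1 and AAP2 again passed through their Ex2 value alone, which required a lower pellet value. The count and the median therefore describe the carriers and support nothing here either. Bright on both arrays were PT1, OPT1 and Aqp2, with -2.17, -1.70 and -1.27. Over all 7 carriers with no filter the median was -1.62. PT1, OPT1 and Aqp2 passed for pellet minus Ex1. Of these 1 of 3, Aqp2, was at least 2-fold higher in the pellet, against 3.78% of 5297 probe sets, and 0 were at least 2-fold lower, against 4.78%. The median of these 3 was 0.68, against 0 over all probe sets that passed. The comparisons share arrays pairwise, so a high Ex2 value alone gives opposite signs in Ex2 minus Ex1 and pellet minus Ex2.

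**Figure D2:**
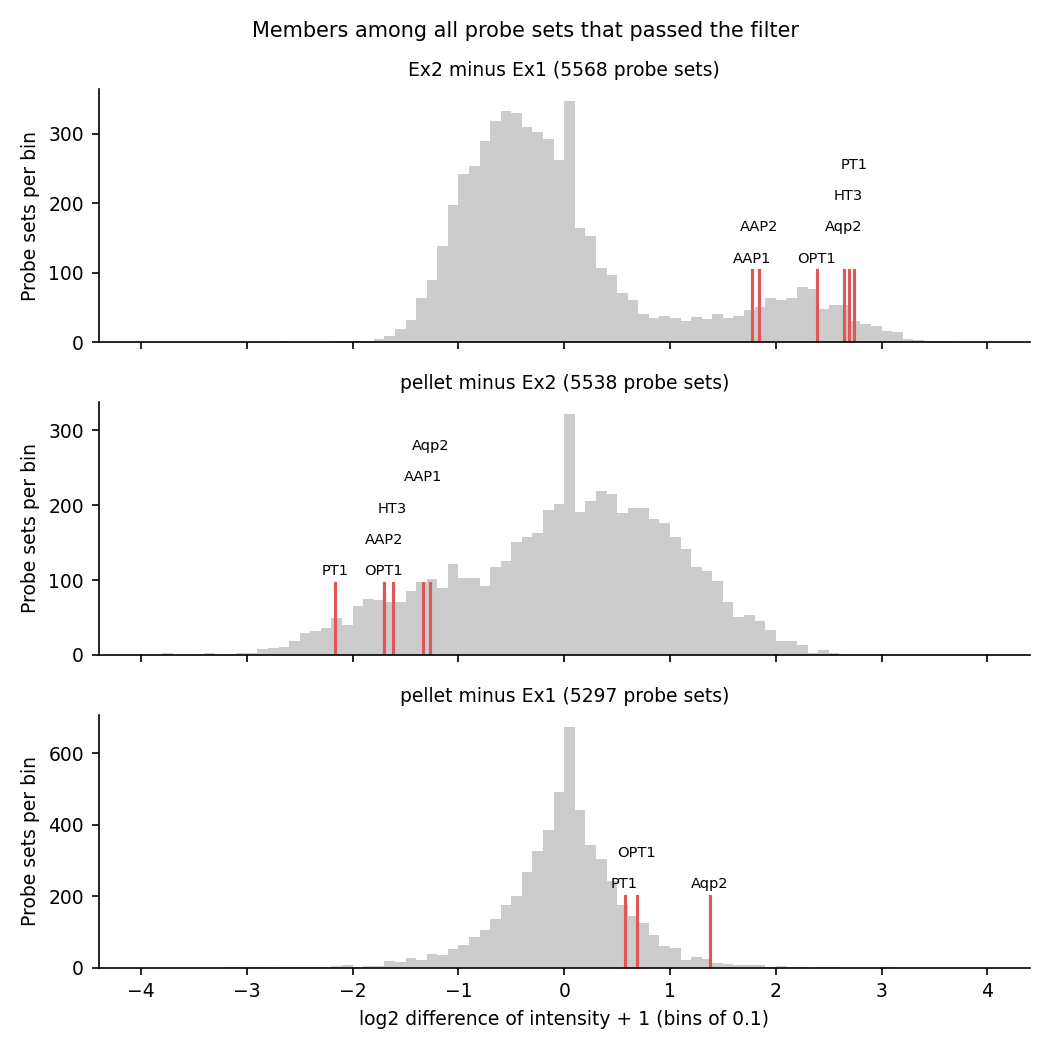
Distribution of log2 differences over all probe sets that passed the filter (grey bars, bins of 0.1), with the carriers that passed as red lines, for each comparison. The 6 carriers lie between 1.77 and 2.74, to the right of the thinly filled range near 1.1 in Ex2 minus Ex1, and in pellet minus Ex1 PT1 and OPT1 lie near 0.6 to 0.7 and Aqp2 at 1.38.

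The carriers differed among themselves in size. The order for Ex2 minus Ex1 was PT1, HT3, Aqp2, OPT1, AAP2 and AAP1. No spread between samples exists to set these gaps against. The yardstick was the gap between probe sets of the same gene within the arrays, with a median of 0.22 over 26 genes. It used only probe sets that passed the filter. It thus left out the sucrose transporter gene SUT4, whose probe sets had 1.98 and, under the threshold, -0.20. PT1 and HT3 were 0.05 apart, HT3 and Aqp2 0.04 and AAP2 and AAP1 0.07, gaps smaller than the yardstick. The gaps from Aqp2 to OPT1 (0.26) and from OPT1 to AAP2 (0.55) were larger than this median but under the 90th percentile of such gaps, 0.59. Each step between neighbours thus stays within what probe sets of a single gene can show. The ends of the order, PT1 and AAP1, were 0.96 apart, more than that percentile. For pellet minus Ex2 the yardstick was 0.38 over 24 genes. The 1 larger gap between neighbours was that from OPT1 to PT1 (0.46), under the 90th percentile of 0.65. The ends, Aqp2 and PT1, were 0.90 apart, again a range that the yardstick cannot judge. In pellet minus Ex1, with a yardstick of 0.18 over 25 genes, Aqp2 stood 0.69 above OPT1, also more than the 90th percentile of 0.36, and OPT1 stood 0.11 above PT1.

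Differences for Ex2 minus Ex1 stayed above 0 for the 6 carriers under every scaling tried. With scaling on the spikes they ran from 0.56 for AAP1 to 1.52 for PT1, and AAP1 and AAP2 were then less than 2-fold apart. With scaling on RPL3 and RPL8 they ran from 2.32 for AAP1 to 3.28 for PT1. All 6 stayed below 0 for pellet minus Ex2, from -1.53 for PT1 to -0.63 for Aqp2 with the spikes. The spikes turned the sign for pellet minus Ex1 of PT1 (-0.01), AAP1 (-0.13) and AAP2 (-0.44). HT3 (0.49), OPT1 (0.10) and Aqp2 (0.80) stayed above 0, with Aqp2 then less than 2-fold apart.

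**Figure D3:**
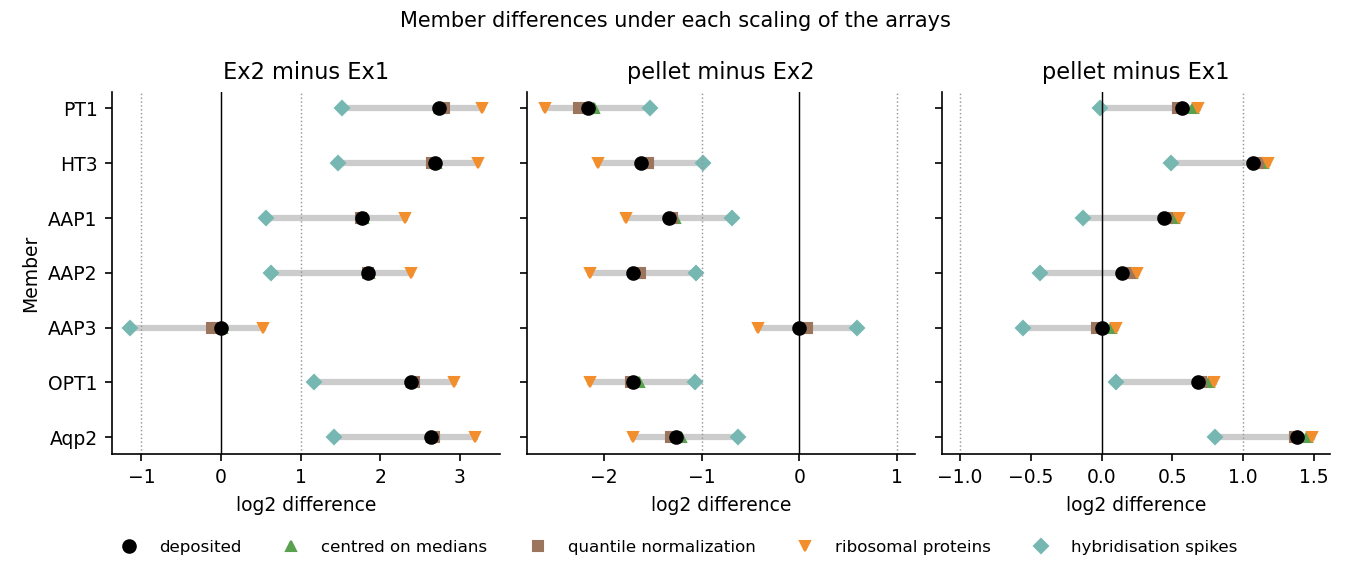
Log2 difference of each carrier (x axis) in the 3 comparisons on the deposited scale (black circles) and with the arrays rescaled in 4 ways (coloured marks), with grey bars over their range and dotted lines at 2-fold. Scaling on the spikes gives the lowest values for Ex2 minus Ex1, between 0.56 and 1.52 for the 6 carriers other than AAP3, and turns PT1, AAP1 and AAP2 below 0 for pellet minus Ex1.

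The pellet's place between the other preparations was read on the log2 scale, with Ex1 at 0% and Ex2 at 100%. Aqp2 was at 52.1%, HT3 at 39.6%, OPT1 at 28.6%, AAP1 at 24.8%, PT1 at 20.9% and AAP2 at 7.73%. The median of these 6 was 26.7%, close to the median of 25.5% over all 964 probe sets at least 2-fold higher in Ex2 than in Ex1. Their interquartile range ran from 9.17% to 42.7%, so on the deposited scale Aqp2 lay above it and AAP2 below it, with the other carriers inside. The pellet and Ex1 values of HT3, AAP1 and AAP2 were under the brightness threshold. Among the 964, 82.1% were ordered as the 6 carriers were, with Ex2 highest and Ex1 lowest. Across the scalings Aqp2 ranged from 46.6% to 56.0%, HT3 from 33.3% to 42.1%, OPT1 from 8.87% to 31.5% and PT1 from -0.65% to 23.4%. AAP2 was at 11.5% with the arrays centred on their medians, 11.3% with quantile normalization and 10.5% with ribosomal scaling. These lie above 9.17%, but the interquartile range was not recomputed on those scales. AAP1 and AAP2 have no place on the spikes, where they were less than 2-fold apart, so the median of 26.7% holds for the deposited scale.

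**Figure D4:**
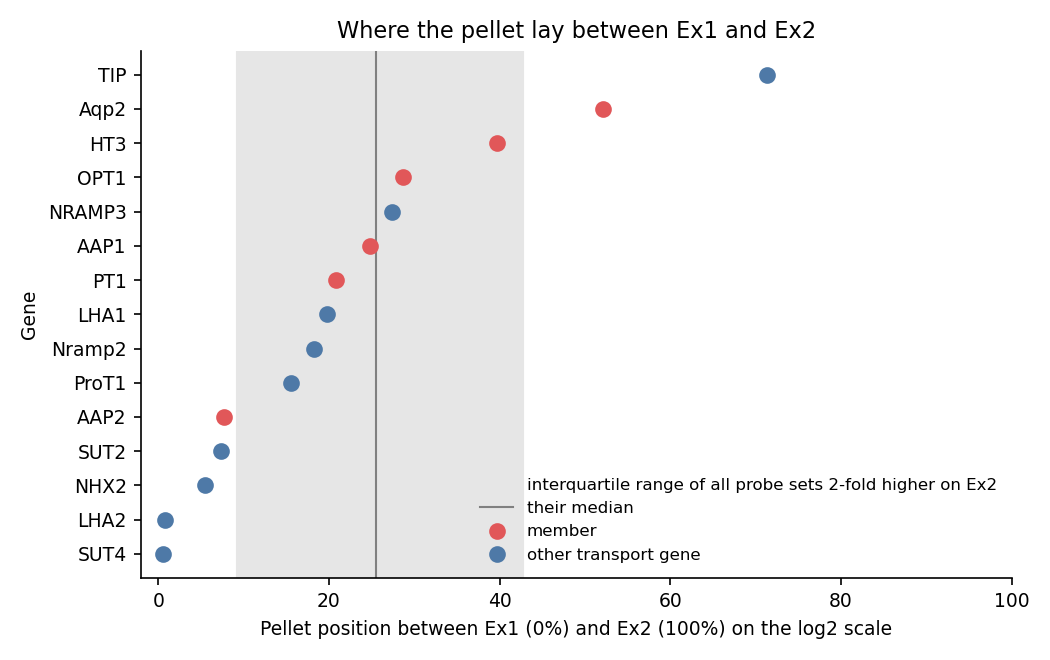
Place of the pellet between Ex1 (0%) and Ex2 (100%) on the log2 scale, for carriers (red) and other transport genes (blue) with Ex2 at least 2-fold above Ex1, and the interquartile range of all 964 such probe sets as a grey band, with their median as a line. The aquaporin gene Aqp2 (52.1%) and the tonoplast intrinsic protein gene TIP (71.4%) lie to the right of the band, and SUT4, LHA2, NHX2, SUT2 and AAP2 to its left. The SUT4 point is its probe set with the higher mean, and the other is not shown.

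A wider list of membrane transport genes held 24 further genes. Of these, 10 reached the threshold for Ex2 minus Ex1, and 9 of the 10 had Ex2 at least 2-fold above Ex1. Their median over the 10 was 2.04. NHX2, Nramp2, LHA1, SUT2, SUT4 and TIP passed through Ex2 alone, which required a higher Ex2 value, so this count describes the list and supports nothing. With no filter the Ex2 value was at least 2-fold above Ex1 for 13 of the 24, and the median was 1.55. Over all 10038 non-control probe sets with no filter it was so for 12.0%, and the median was -0.03. The 1 exception among the 10, TMT, had the same intensity of 287 on all arrays, and its symbol is also used for enzymes that are not carriers. Among the 479 named genes that passed and are on no transport list, 85 were at least 2-fold higher there, or 17.7%, with a median of -0.05. For pellet minus Ex2, 8 of 10 were at least 2-fold lower in the pellet, against 19.3% of the named genes that passed and are on no transport list, with a median of -1.78. SUT2, SUT4, Nramp2 and TIP passed here through Ex2 alone, and with no filter 12 of the 24 were at least 2-fold lower, with a median of -0.99. Over the 10038 probe sets with no filter 13.1% were, with a median of 0. The 6 that passed for pellet minus Ex1 included 0 that were 2-fold apart, against 3.78% higher and 4.78% lower over all probe sets that passed. The median of these 6 was 0.25, or -0.33 with scaling on the spikes.

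By what they carry, the sucrose transporter gene SUT2 read 111 in the pellet, 345 in Ex2 and 101 in Ex1. SUT2 had a difference of 0.13 for pellet minus Ex1 and of 1.76 for Ex2 minus Ex1, close to those of AAP2. SUT4, also a sucrose transporter gene, had a probe set at 68.4 in the pellet, 271 in Ex2 and 68.0 in Ex1. The other SUT4 probe set read 80.8 in the pellet, 75.5 in Ex2 and 87.2 in Ex1 and did not share that order, so the gene's probe sets disagreed. The first stood for the gene because its mean was higher, which rests on its Ex2 value alone. Its Ex1 value was under the highest reporter value, 71.5. The place of SUT4 in the counts therefore supports nothing. ProT1, which encodes a proline transporter, read 332 in the pellet, 1254 in Ex2 and 259 in Ex1, with 2.27 for Ex2 minus Ex1. Its relative ProT2 missed the threshold, at 104 in the pellet, 162 in Ex2 and 92.8 in Ex1, and ProT3 was tied at 15.2.

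The metal transporter gene NRAMP3 read 2249 in the pellet, 6499 in Ex2 and 1506 in Ex1, with 2.11 for Ex2 minus Ex1. Nramp2 read 90.5 in the pellet, 279 in Ex2 and 70.3 in Ex1, with 1.97. The Ex1 values of Nramp2 and TIP were under the highest reporter value, 71.5. The plasma membrane proton pump genes, whose proteins maintain the gradient the carriers draw on, had 2.96 (LHA1) and 2.15 (LHA2), and the cation/proton antiporter gene NHX2 had 2.65. LHA2 read 1266 in the pellet, 5548 in Ex2 and 1251 in Ex1, so the pellet lay next to Ex1. TIP, a water channel gene of the vacuolar membrane, read 138 in the pellet, 188 in Ex2 and 63.2 in Ex1. TIP passed through Ex2 alone, with -0.45 for pellet minus Ex2 and 1.56 for Ex2 minus Ex1, so its pellet value was nearer to Ex2 than that of any carrier. With scaling on the spikes the TIP value for pellet minus Ex2 was 0.19, above 0, while the bright transport genes other than TIP and TMT stayed below 0.

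The 4 genes of the phosphate, nitrogen and sulfate group outside the carriers (PT2, AMT1-2, ST1 and ST2) did not reach the threshold on any array. Like AAP3, ST1 was tied on all 3 arrays. No order of the preparations is read for these dim genes.

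The genes with 1 name most like each carrier were found by Euclidean distance over their differences for pellet minus Ex1 and Ex2 minus Ex1, among 501 genes bright on at least 1 of the 3 arrays. Nearest to PT1 were the ethylene receptor gene ETR1 (distance 0.13), the endoglucanase gene Cel3 (0.18) and LOC543517 (0.18). Nearest to HT3 were LOC544001 (0.22), the cell wall invertase gene lin5 (0.22) and LOC543511 (0.26). The lin5 values were 352 in the pellet, 1341 in Ex2 and 190.5 in Ex1. Nearest to AAP2 were SUT2 (0.08), the calcium-dependent protein kinase gene CDPK1 (0.10) and SUT4 (0.19). The SUT4 match holds for the probe set that was chosen through its Ex2 value, and the other SUT4 probe set differed. Nearest to AAP1 were VPE5 (0.11), CYP1 (0.14) and LOC543937 (0.14). OPT1 had LOC543789 (0.07), CLB1 (0.18) and LOC543698 (0.20) as its nearest genes. Aqp2 had LOC544001 (0.11), LOC543758 (0.13) and the acid phosphatase gene APS1 (0.17). With 3 arrays these are matches over 2 differences, and unnamed probe sets were not searched.

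Other signals moved with the preparations too. Of 3 epidermal markers, 2 were found, the lipid transfer protein genes TSW12 and LE16. Their summed intensity was 2073 in the pellet, 1928 in Ex2 and 695 in Ex1. TSW12 read 1059 in the pellet, 1240 in Ex2 and 302 in Ex1. LE16 read 1014 in the pellet, 688 in Ex2 and 394 in Ex1. Both were lowest in Ex1, as the 6 carriers were, but LE16 was highest in the pellet. Of 6 green tissue markers, 2 were found, summing to 4466 in the pellet, 3892 in Ex2 and 4251 in Ex1. Most of that sum is PSBO, while the light-harvesting protein gene CAB4 read 522 in the pellet, 227 in Ex2 and 306 in Ex1, highest in the pellet and lowest in Ex2. Of 3 phloem and vascular markers, SUT2 was the 1 found. The 3' to 5' signal ratio of the actin control, a measure of RNA integrity and labelling, was 1.35 in the pellet, 1.71 in Ex2 and 1.20 in Ex1, in the same order as the 6 carriers. The part of these signals in the carriers' differences was not tested. The preparations differ by extraction, with 1 array each, so recovery of an RNA, its integrity and the array itself cannot be told apart. In bulk RNA of this kind, fewer cells of a type and less RNA per cell cannot be told apart either.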

How the data were processed

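The 3 arrays measured total RNA of 3 pericarp preparations, 1 array each. The authors deposited intensity values that, by their range, are linear. Per the submitters' processing notes, GCOS 5.0 and RMA were used, without parameters. The deposited table holds 10209 probe sets, 171 of them controls.

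Names came from the platform annotation, updated through the Entrez ID with the RefSeq table of assembly SLM_r2.1 (885 of 909 named probe sets matched). Where a gene had several probe sets, that with the highest mean was used. Each carrier had 1. Differences of log2(intensity + 1) were computed with Python 3.11.15, pandas 2.3.3 and NumPy 2.4.6, and the code was tested on simulated data. No test was run.

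The members and lists were chosen with earlier results of these data known. Named are every carrier, every other transport gene that passed the filter, the 3 genes nearest to each carrier, and fixed markers. PT2, HT1, HT2 and other dim transport genes were named after their values were seen. Sequences and coordinates were not used here.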

Additional observations from a re-analysis of the deposited data

How the results depend on the processing

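Alternatives were no filter, an upper-quartile filter, 4 rescalings, a pseudocount of 16, other thresholds, other uses of probe sets, and leaving out each carrier. Leaving out TMT, pip1 and LePIP1, whose symbols are ambiguous, was chosen after seeing the data. Medians count as moved when they shifted by more than the gap between probe sets of a gene. No median of 2-fold or more in size turned sign, and no single carrier's difference of that size did.

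The carriers' median for Ex2 minus Ex1 (2.52) was 3.06 with ribosomal scaling and 1.30 on the spikes, and for pellet minus Ex2 (-1.66) it was -2.10 with ribosomal scaling and -1.02 on the spikes. With the upper-quartile filter 3 carriers passed, and 3 were 2-fold higher in Ex2 than in Ex1 and 3 lower in the pellet than in Ex2. On the spikes the number with pellet values 2-fold below Ex2 was 3. For pellet minus Ex1 the median (0.68) was 0.97 with the upper-quartile filter, 0.10 on the spikes, 1.03 without PT1 and 0.97 without OPT1. The 1 carrier 2-fold higher there became 2 with no filter or at 1.5-fold, and 0 on the spikes, at 3-fold or without Aqp2.

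The other transport genes had a median for Ex2 minus Ex1 (2.04) of 1.55 with no filter, 2.27 with the upper-quartile filter, 2.59 with ribosomal scaling and 0.83 on the spikes. Their 9 higher genes became 13 with no filter, 5 with the upper-quartile filter and 3 on the spikes, where 1 was lower. That gene was TMT, tied on the deposited scale and placed at -1.21 by the scaling itself. For pellet minus Ex2 (-1.78) the median was -0.99 with no filter, -2.21 with ribosomal scaling and -1.13 on the spikes, and the 8 lower genes became 5 on the spikes and 5 with the upper-quartile filter. For pellet minus Ex1 (0.25) the median was -0.33 on the spikes, and 1 gene was 2-fold higher with no filter and 1 at 1.5-fold. The cause of these shifts was not tested.

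Of 105 differences of single carriers under rescaling and the pseudocount, 36 moved and 3 turned sign. Averaging probe sets per gene and leaving out cross-hybridising designs left the carriers' values as they were, since each has 1 probe set of the plain design. The planned classes of proteins by hydrophobic stretches were not run, as protein sequences were not used here. No paired analysis was possible because each group has 1 array.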

Other observations

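Of the 24 transport genes outside the carriers, 14 stayed under the brightness threshold on all arrays, with intensities from 10.0 to 162. Of these, 4 were at least 2-fold higher in Ex2 than in Ex1: HT2, the cation/proton antiporter gene NHX1, LePIP1 and pip1. NHX1 read 32.4 in the pellet, 89.3 in Ex2 and 30.1 in Ex1. LePIP1 read 48.3 in the pellet, 124 in Ex2 and 32.2 in Ex1. The gene pip1 read 47.0 in the pellet, 122 in Ex2 and 27.5 in Ex1. The symbol PIP1 is used both for plasma membrane water channels and for a protease, so neither can be called a water channel from its symbol, although both are counted in the list of 24. Their Ex1 values, and those of HT2 and NHX1, lay near or below the 90th percentile of reporter probe sets on Ex1, 29.4, so no fold is given. Another 3 of the 14, ProT3, ST1 and the metal transporter gene NRAMP1, were tied on all 3 arrays.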
